A study of Rattus norvegicus with 56 samples.

Results

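The NMDA receptor subunit genes are the 7 genes Grin1, Grin2a, Grin2b, Grin2c, Grin2d, Grin3a and Grin3b, chosen by name out of 16481 genes that had a matched probe on the array. Each was followed by its brightest probe, out of 10 probes whose transcript accession belonged to a member. The arrays were hybridised with RNA from primary cultures of hippocampal neurons of E18 Sprague-Dawley rat embryos, kept in Neurobasal medium with B27. Cultures were placed over a magnetic coil and given repetitive transcranial magnetic stimulation (rTMS) as a 1 Hz protocol or as intermittent theta burst stimulation (iTBS), or were given sham treatment with the coil kept at a distance. RNA was taken either at once (0 h) or 2, 8, 24 or 48 h later, so that time after stimulation is also age of the culture and the 2 cannot be told apart. Untreated cultures (CTR) were present at 0 h only. The comparisons used 55 arrays in 16 groups of 2 to 4 arrays, of which 17 were sham, 16 were 1 Hz, 18 were iTBS and 4 were untreated. One further array, 1Hz_2H replicate 2, was left out because its spot grid was marked as failed and 25.3% of its spots were well above background.

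An NMDA receptor is a glutamate-gated cation channel that opens when glutamate and a co-agonist, glycine or D-serine, are both bound and the membrane is depolarised, and it lets in calcium that starts synaptic plasticity. Every receptor holds the obligatory GluN1 subunit, encoded by Grin1, together with GluN2 or GluN3 subunits. GluN2A and GluN2B, encoded by Grin2a and Grin2b, are the main forms of hippocampal pyramidal neurons, with GluN2B the earlier one in development. GluN2C (Grin2c) is best known from cerebellar granule cells and is also found in astrocytes, GluN2D (Grin2d) from interneurons and the young brain, and the GluN3 subunits (Grin3a and Grin3b) lower calcium entry.

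The sample descriptions carry a running number, from which 4 culture series were read: series A, B and C are consecutive stretches of that number, and series D has numbers with a D in front. The labels do not say what a series stands for, or whether replicates are separate cultures, so p-values measure only the spread between these samples. Series A had 11 arrays, series B 12, series C 17 and series D 15, and most groups held 1 array of each of 3 or 4 series. On the arrays used, 66.1 to 81.8% of spots were well above background and the 75th percentile of the processed signal ran from 1896 to 18416. The array least like the others was 1Hz_48H replicate 1 of series A, with a median correlation of 0.948 with the other arrays. The cultures held neurons and other cells: of the markers of 11 cell types, Map2, Tubb3, Gad1 and the astrocyte genes Aqp4, Gfap and S100b were well above background on all 55 arrays, whereas the endothelial genes Cldn5, Flt1 and Pecam1 were so on 6, 4 and 53 arrays. In such mixed RNA, fewer cells of a type and less RNA per cell cannot be told apart.

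The promoters of the obligatory subunit and of the subunit on which the results below turn are shown first, as reference sequence from RefSeq on the build GRCr8. Each runs from 250 bases before to 50 after the start of the gene, on the gene's own strand, and 4 of the 7 members matched an entry. The capitals mark a GC box, spelled GGGCGG and searched on both strands together with the palindromic Nrf1 motif and CCGGAAGT (Gabpa, an ETS factor). Neither of the latter occurred in these windows.
Grin1, chr3:28528705-28529004, minus strand: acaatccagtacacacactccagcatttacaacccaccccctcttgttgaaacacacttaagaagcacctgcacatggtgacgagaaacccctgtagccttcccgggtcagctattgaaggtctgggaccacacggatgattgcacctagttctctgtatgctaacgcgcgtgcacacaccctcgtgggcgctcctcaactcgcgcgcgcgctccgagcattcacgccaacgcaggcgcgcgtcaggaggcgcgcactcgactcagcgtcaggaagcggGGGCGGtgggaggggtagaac
Grin2c, chr10:101005089-101005388, minus strand: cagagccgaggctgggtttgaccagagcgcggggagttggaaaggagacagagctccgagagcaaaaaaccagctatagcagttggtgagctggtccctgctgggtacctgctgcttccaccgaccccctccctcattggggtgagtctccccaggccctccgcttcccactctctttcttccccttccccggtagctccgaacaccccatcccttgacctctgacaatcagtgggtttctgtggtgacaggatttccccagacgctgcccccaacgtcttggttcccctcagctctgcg
The Grin1 window held 1 GC box, which began 29 bases past the start, and had a GC content of 59.7%. The Grin2c window held none of the 3 motifs at a GC content of 60.3%, and the windows of Grin2d and Grin3a held none either. Over all 33469 promoters of this length, 33.1% held the GC box, 0.852% the Nrf1 motif and 3.81% the Gabpa letters. A match of letters is a description and says nothing about binding.

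All members except Grin3b were well above background on all 55 arrays. Levels are given as scaled log2 levels, in which each array's log2 signals were centred on the array's mean, divided by its SD and multiplied by the median SD of 4.06. A level of 0 is thus the mean probe of the array, and a level holds only within its own probe, because probes differ in brightness for reasons other than the amount of RNA. Grin1 had a median processed signal of 6467 (3582 to 38366). The median signal was 360 for Grin2a, 218 for Grin2b, 785 for Grin2c, 24282 for Grin2d and 2556 for Grin3a. The Grin3b probe had a median signal of 13.1 and was well above background on 19 of 55 arrays, and on none of the arrays of 1Hz_8H, SHAM_8H and iTBS_0H, so its changes are changes of a probe near background.

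Across the 16 groups the lowest and highest mean of a subunit lay 0.58 to 1.68 apart. The mean of Grin1 ran from 5.63 (1Hz_24H) to 6.52 (iTBS_48H), with a median SD within groups of 0.41. Grin2a ran from 1.46 (SHAM_24H) to 2.35 (SHAM_0H), median SD 0.52, and Grin2b from 0.55 (1Hz_48H) to 1.55 (1Hz_24H), median SD 0.64. Of these genes Grin2b varied most within groups. Grin2d ran from 7.32 (1Hz_48H) to 8.27 (SHAM_8H) and Grin3a from 4.25 (1Hz_48H) to 4.83 (1Hz_2H, 2 arrays), each with a median SD of 0.41. In 1Hz_48H, replicate 1 of series A was at 5.66 for Grin2d, 2.82 for Grin3a and -0.41 for Grin2b. The arrays of series C and D in that group were at 7.65 and 7.81 for Grin2d, 4.74 and 4.94 for Grin3a, and 0.54 and 1.85 for Grin2b. The widest band was that of Grin2c, from 2.01 in the untreated cultures to 3.69 in iTBS_48H. Its median SD within groups, 0.82, was also the largest of the 7. The 4 untreated arrays lay apart by series, at 0.98 and 1.23 in series A and at 3.03 and 2.80 in series C.

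The first question was whether stimulation changed a subunit against sham at the same time. None of the 70 tests (7 genes, 2 protocols, 5 times) passed in limma, with Benjamini-Hochberg adjustment over all 35694 probes and a threshold of 0.05. The smallest adjusted p was 1.00 and none had an unadjusted p below 0.05. In the 10 comparisons 0 to 0.0056% of all probes were called. The changes ran from -0.65 to +0.82 on the log2 scale with a median size of 0.21, and their SE was 0.30 to 0.72, so that a change within the 95% intervals plotted for stimulated minus sham was not detectable with these arrays. The criteria stated in the study's methods were also applied to the same arrays. As applied here they called 0 to 0.0155% of probes, and 0 of the 70 passed. The paper lists many more changed genes in each of these comparisons. Among the subunits it marks Grin1, Grin2a, Grin2c and Grin2d as changed in some of them. The cause of this difference was not tested, and the 0 of 70 holds only for the criteria as applied here.

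**Figure D1:**
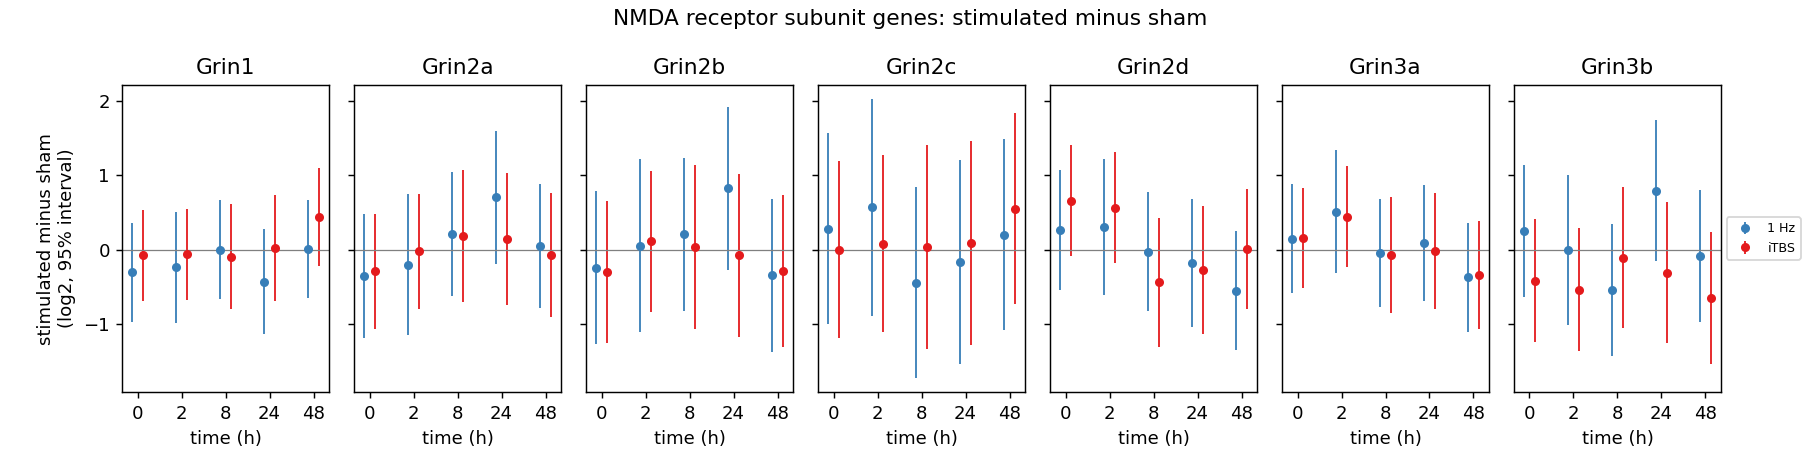
Stimulated minus sham difference of each subunit gene (log2 scale, y axis) at each time after stimulation (x axis, h) for the 1 Hz (blue) and iTBS (red) protocols. Points are limma estimates from 2 to 4 arrays a group and bars are 95% intervals; all 70 intervals include 0, and the estimates run from -0.65 to +0.82.

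The differences of largest size, and that of Grin2c at 48 h, were looked at array by array. At 24 h Grin2b was at 1.63, 0.93 and 2.08 in the 1 Hz arrays of series A, C and D, and at 0.03, 0.42 and 1.72 in the sham arrays of series B, C and D. The groups overlapped and did not hold the same series, and the difference of +0.82 ± 0.54 (SE) had an adjusted p of 1.00 in limma. In the series that both groups shared, it was +0.51 (C) and +0.36 (D). Grin2a differed by +0.70 ± 0.44 in the same comparison, and by -0.06 and +0.73 within series C and D.

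The Grin3b probe, near background, was at -2.77, -2.49 and -2.05 in the 1 Hz arrays of series A, C and D at 24 h, and at -3.17, -3.86 and -2.66 in the sham arrays of series B, C and D. The groups overlapped, and the difference was +0.79 ± 0.47 (adjusted p = 1.00 in limma). At 48 h it was at -3.44, -4.41, -2.61 and -2.79 after iTBS in series A, B, C and D, and at -3.20, -2.63 and -2.15 after sham in series A, C and D. These groups overlapped as well, at a difference of -0.65 ± 0.44 (adjusted p = 1.00 in limma).

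At 0 h Grin2d was at 8.33, 8.38, 8.13 and 8.20 after iTBS in series A, B, C and D, and at 7.52, 7.90, 7.33 and 7.65 after sham. The groups did not overlap and iTBS was higher in 4 of 4 series. The difference of +0.66 ± 0.37 had an unadjusted p of 0.0824 and an adjusted p of 1.00 in limma, in a comparison where 0% of probes were called. This fit did not match the arrays by series. Within series A, B, C and D the differences were +0.81, +0.48, +0.80 and +0.54. The second Grin2d probe, which correlated with the first at only 0.28 over the 55 arrays, differed by +0.28 ± 0.31 (unadjusted p = 0.369 in limma).

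At 48 h Grin2c was at 2.58, 3.57, 4.48 and 4.14 after iTBS in series A, B, C and D, and at 1.54, 4.17 and 3.72 after sham in series A, C and D. In each of the 3 shared series iTBS was higher, by 1.04, 0.31 and 0.41. The difference was +0.55 ± 0.64 (adjusted p = 1.00) in limma, and +0.56 ± 0.18 with series in the model (unadjusted p = 0.00336, adjusted p = 0.914). Over all times, Grin2c was higher after iTBS than after sham in 12 of 17 pairs of the same series and time (median +0.08) and after 1 Hz in 4 of 13. Grin3b was lower after iTBS in 13 of 17 pairs (median -0.18), and its mean difference over the 5 times was -0.40 ± 0.20 (unadjusted p = 0.0462, adjusted p = 1.00 in limma) on a probe near background.

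The other stimulation comparisons gave no call in limma. Averaged over the times, 0 of 14 passed, where 0% of probes were called. Between iTBS and 1 Hz at the same time, 0 of 35 passed against 0 to 0.0056% of probes, the largest being Grin3b at 24 h (-1.10 ± 0.47, unadjusted p = 0.0239, adjusted p = 1.00). Untreated minus sham cultures at 0 h gave 0 of 7 (0.0028% of probes) with changes from -0.41 for Grin2c to +0.10 for Grin3b. The untreated arrays came from series A and C only, and with series in the model the Grin2c difference was -0.10. The test of whether a protocol's difference from sham varied between times passed for 0 of 14, where 0% of probes were called.

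The second question was how the subunits moved with time over the sham, 1 Hz and iTBS cultures. Grin2c rose with time inside every culture series, by 0.42 to 1.03 on the log2 scale from the early times (0 and 2 h) to the late times (24 and 48 h). Grin2a fell in series B, and Grin2b in series A and B. Grin1 rose in series B, while Grin2d, Grin3a and Grin3b had no change that passed by their brightest probes.

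Grin2c is taken first. In series A it was at 0.96, 1.02, 1.20 and 1.31 on the early arrays and at 1.54, 1.74, 2.38 and 2.58 on the late ones. In series B the early values were 2.23, 2.29, 2.40, 2.45 and 2.64 and the late values 2.55, 2.87, 3.54 and 3.57. In series C the 6 early arrays ran from 2.77 to 3.05 (median 2.89) and the 6 late ones from 3.55 to 4.48 (median 3.89). In series D the 6 early arrays ran from 3.05 to 3.43 (median 3.24) and the 6 late ones from 3.38 to 4.14 (median 3.61). Early and late arrays did not overlap in series A and C, and overlapped by 1 late array in series B and 2 in series D.

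In the fit with a change for each series, chosen after the data were seen, the rise of Grin2c was +0.83 ± 0.15 in series A, +0.70 ± 0.14 in series B, +1.03 ± 0.11 in series C and +0.42 ± 0.12 in series D. The adjusted p in limma was 6.16e-05, 2.41e-04, 1.05e-06 and 0.00565. In these comparisons 23.8, 36.4, 4.6 and 31.9% of all probes were called. The size of the rise differed between series (adjusted p = 0.0259, a test that 40.4% of probes passed).

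**Figure D2:**
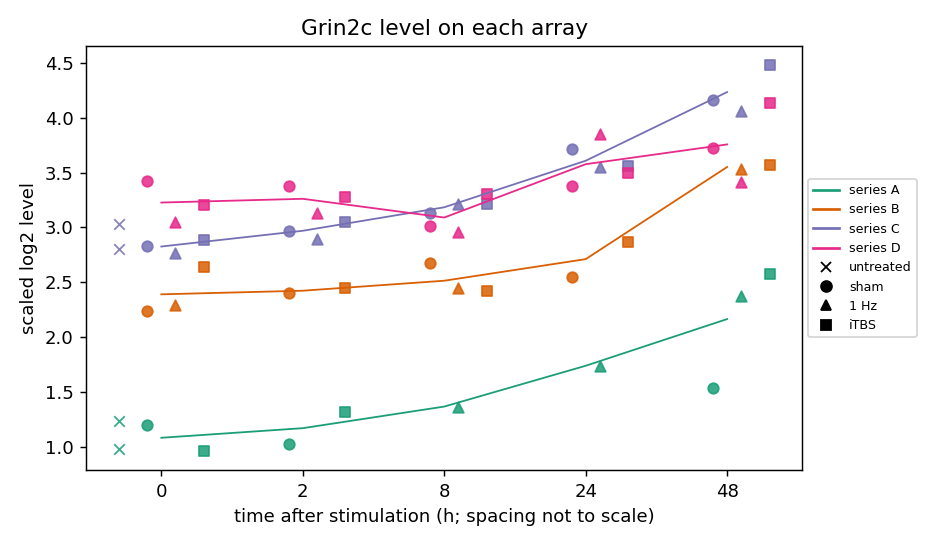
Scaled log2 level of Grin2c (y axis) on each of the 55 arrays by time after stimulation (x axis, h, spaced by group); colour gives the culture series, the marker gives the treatment and the lines join the series means without the untreated arrays. The 4 series sit at different levels, and in each the late arrays lie above most or all early ones, for example 0.96 to 1.31 against 1.54 to 2.58 in series A.

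How sharply this showed depended on whether the model knew the series. Without series, 0 of 35 tests of time (7 genes, 4 later times against 0 h and late against early) passed in limma. Of all probes 0, 0.219 and 3.83% were called at 2, 8 and 24 h. At 48 h Grin2c was higher than at 0 h by 0.88 ± 0.36 (adjusted p = 0.107), where 10.8% of probes were called, and late minus early it was +0.70 ± 0.27 (adjusted p = 0.0636, 16% of probes). With series in the model 5 of 35 passed, 3 of them Grin2c: +0.53 ± 0.10 at 24 h (adjusted p = 4.69e-04, 14% of probes called), +1.01 ± 0.10 at 48 h (adjusted p = 1.81e-09, 27%) and +0.74 ± 0.07 for late minus early (adjusted p = 6.92e-10, 31.2%). At 2 and 8 h Grin2c was within +0.07 ± 0.10 and +0.15 ± 0.10 of the 0 h level, where 0 and 2.37% of probes were called.

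The rise was present in each treatment. With series in the model, Grin2c was higher at the late times by 0.53 ± 0.13 in sham (adjusted p = 0.00476), 0.87 ± 0.14 in 1 Hz (adjusted p = 1.37e-04) and 0.82 ± 0.12 in iTBS cultures (adjusted p = 1.40e-05) in limma, where 11, 6.91 and 17.1% of probes were called. Sham cultures over the 5 times gave a call for Grin2c, 1 of 7 members (adjusted p = 0.0436, 3.3% of probes), but not without series (adjusted p = 1.00, 0.0784% of probes). Whether the difference of a protocol from sham varied with time did not pass for Grin2c with series in the model either (adjusted p = 1.00 for 1 Hz and 0.989 for iTBS).

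The slides bear on this rise. Series A, B and C each lay on slides of their own, shared with arrays of series D, and their early and late arrays mostly lay on different slides. With slide as a block and no series, the Grin2c change at 48 h was +0.08 (adjusted p = 0.935 in limma) and late minus early +0.06 (adjusted p = 0.939). With slide and series together, a fit chosen after the data were seen, they were +1.40 ± 0.17 (adjusted p = 2.72e-06) and +1.06 ± 0.13 (adjusted p = 1.28e-06), where 16.6 and 16.4% of probes were called. In series B all early arrays lay on slide 3 and all late ones on slide 4. In series D the early arrays lay on slides 1, 2 and 3 and the late ones on slides 5, 6 and 7. A change of any gene within series B or D, or the lack of one, therefore cannot be told apart from slide. Early and late arrays of one series shared a slide in only 2 cases. In series A, 1 early array at 1.31 stood against 4 late arrays at 1.54 to 2.58, and in series C, 2 early arrays at 2.89 and 3.05 stood against 1 late array at 3.72.

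Astrocyte markers moved with the same times. With series in the model, 5 of the 6 astrocyte markers were called between late and early, 4 of them higher, with a list median of +0.58 against -0.04 over all probes. Of all probes 31.2% were called in this comparison, which also holds for the neuronal and glutamatergic counts below. Gfap, the intermediate filament of astrocytes, rose by 1.53 ± 0.16 (adjusted p = 1.96e-09), the water channel Aqp4 by 0.77 ± 0.12, S100b by 0.66 ± 0.09 and the gap junction gene Gja1 by 0.50 ± 0.07, while Aldh1l1 fell by 0.43 ± 0.12 in limma. The mean level of the 6 markers ran from 6.11 to 6.95 on early and from 6.63 to 7.90 on late arrays, and all 6 were well above background on all 55 arrays. Over the 55 arrays it correlated with Grin2c at 0.61, as a description of arrays that share series and times. The fibroblast and choroid plexus lists correlated with Grin2c at 0.45 and 0.42, and the other lists at -0.39 (cycling) to 0.24 (oligodendrocyte). Of the 5 neuronal markers 2 were called, Tubb3 lower by 0.68 ± 0.15 and Map2 by 0.42 ± 0.14, while Rbfox3, Snap25 and Syt1 were not (list median -0.21). Of the 4 glutamatergic markers Tbr1, Neurod6 and Slc17a7 were lower and Slc17a6 was not called (list median -0.29). The part of the cell make-up in the change of Grin2c was not tested.

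**Figure D3:**
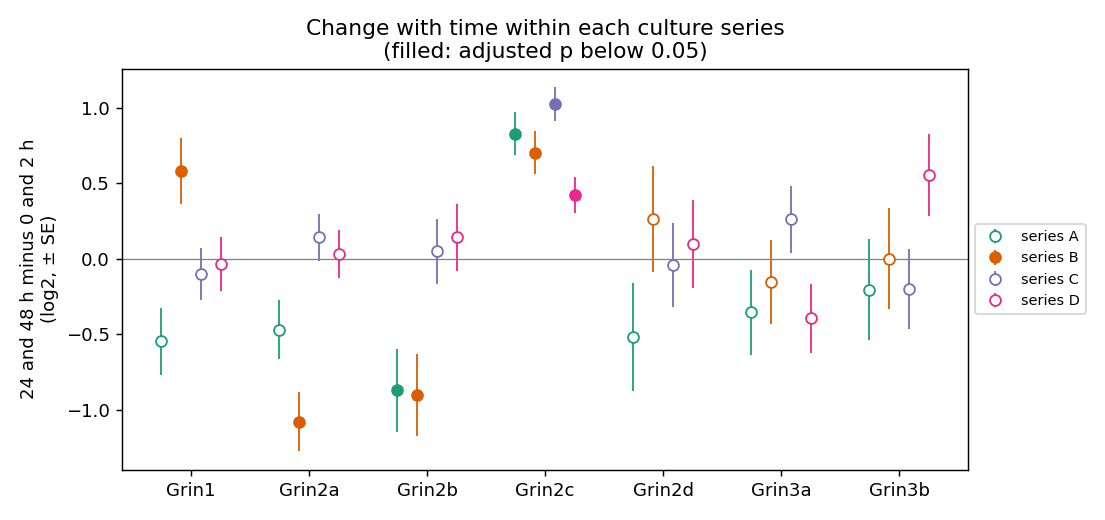
Change from 0 and 2 h to 24 and 48 h (log2 scale, y axis) of each subunit gene within culture series A to D; bars are ± 1 SE of the limma fit and filled points have an adjusted p below 0.05. Grin2c lies above 0 in all 4 series (+0.42 to +1.03), Grin2a and Grin2b lie below 0 in series A and B and near 0 in series C and D.

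Of the subunit genes of pyramidal neurons, Grin2a fell with time in series B and Grin2b in series A and B, and neither had a change that passed in series C or D. In series B Grin2a was at 2.22, 2.44, 2.45, 2.46 and 2.66 on early arrays and at 0.86, 1.28, 1.48 and 1.78 on late ones. The groups did not overlap, and the change was -1.08 ± 0.20 (adjusted p = 5.68e-05 in limma). The early arrays of series B lay on slide 3 and the late ones on slide 4, so time and slide cannot be told apart. In series A the change was -0.47 ± 0.20 (adjusted p = 0.0826), in series C +0.14 and in series D +0.03. The second Grin2a probe, which correlated with the first at 0.88, gave -0.55 in series A (adjusted p = 0.00395) and -0.82 in series B (adjusted p = 2.47e-05), and passed in neither series C nor D. The difference between series passed for both probes (adjusted p = 7.43e-04 and 6.01e-04).

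In series A Grin2b was at 1.12, 1.46, 1.87 and 2.30 on early arrays and at -0.41, 0.85, 1.25 and 1.63 on late ones, which overlapped. In series B it was at 0.69, 0.70, 0.88, 1.08 and 1.32 early and at -0.42, -0.15, 0.03 and 0.21 late, with no overlap. Here too the early and late arrays of series B lay on different slides. The changes were -0.87 ± 0.27 (adjusted p = 0.0193 in limma) and -0.91 ± 0.27 (adjusted p = 0.00895), against +0.05 in series C and +0.14 in series D, and differed between series (adjusted p = 0.0127). The lowest value in series A, -0.41, was that of 1Hz_48H replicate 1, the array least like the others. The highest, 2.30, was that of iTBS_2H replicate 3, far above the other arrays of its group (0.53 to 0.77). These arrays had the highest and the lowest 75th percentile of signal (18416 and 1896). The change within series A was not fitted without them.

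Over the series together both genes were lower at 48 h than at 0 h, and these calls were near the threshold. With series in the model Grin2a was at -0.42 ± 0.16 (adjusted p = 0.0455 in limma) and Grin2b at -0.56 ± 0.20 (adjusted p = 0.0320). Without 1Hz_48H replicate 1 they were -0.33 (adjusted p = 0.0959) and -0.42 (adjusted p = 0.0656). Neither passed without series A (-0.32 and -0.40), B (-0.21 and -0.41) or D, where the changes were larger than with all series (-0.51 and -0.61). Both passed without series C (-0.61 and -0.80). With slide and series in the model Grin2b was at -1.18 (adjusted p = 0.0213) and Grin2a at -0.74 (adjusted p = 0.0578). With slide as a block and no series Grin2b was at -0.39 (adjusted p = 0.629 in limma) and Grin2a at +0.02 (adjusted p = 0.982). On the shared slides of series A and C, late minus early was -0.12 and +0.11 for Grin2a and -1.47 and -0.08 for Grin2b. These values rest on 1 early and 4 late arrays in series A, and on 2 early and 1 late in series C. The early array of series A was iTBS_2H replicate 3, at 2.30 for Grin2b, and the late ones included 1Hz_48H replicate 1, at -0.41. The Grin2c change at 48 h passed without each of the 4 series, at +0.85 to +1.18.

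**Figure D4:**
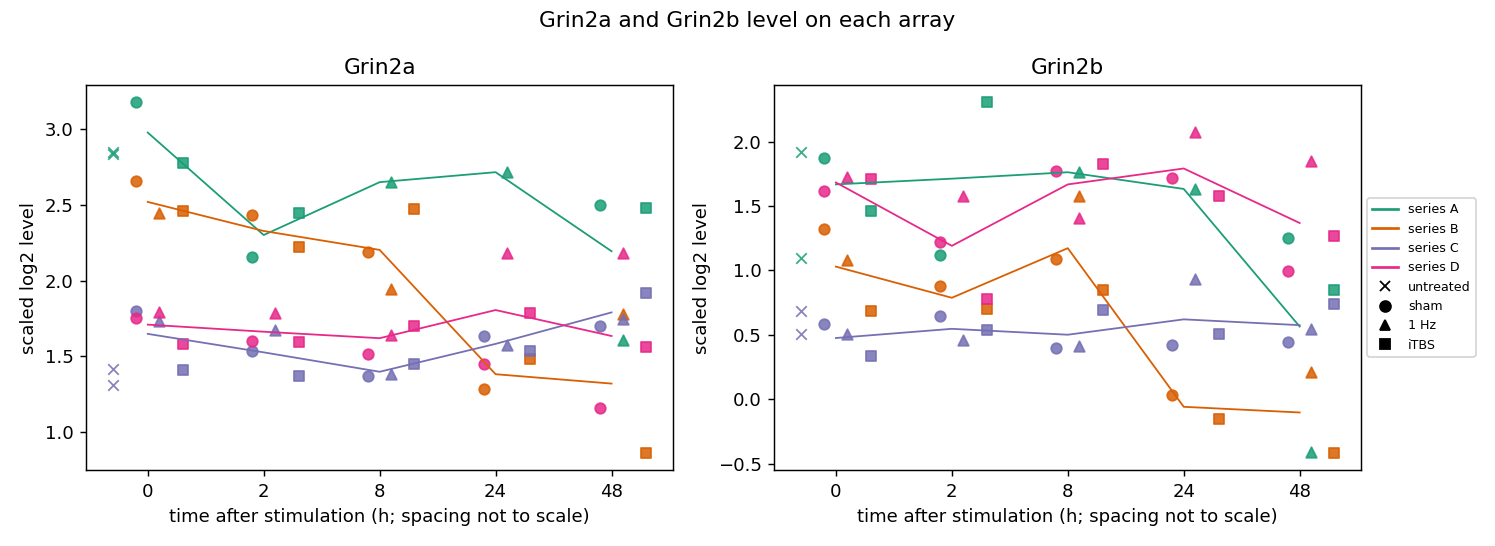
Scaled log2 level of Grin2a (left) and Grin2b (right) on each of the 55 arrays (y axis) by time after stimulation (x axis, h, spaced by group), with colour for the series, markers for the treatment and lines for the series means without untreated arrays. The series B values drop at 24 and 48 h, from 2.22 to 2.66 down to 0.86 to 1.78 for Grin2a, while series C stays between 1.31 and 1.92.

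The obligatory subunit gene Grin1 did not move one way. In series B it was at 5.55, 5.58, 5.72, 5.87 and 5.99 on early arrays and at 6.11, 6.19, 6.37 and 6.95 on late ones. It rose by 0.58 ± 0.22 (adjusted p = 0.0364 in limma), between arrays on different slides. In series A it was at 5.98, 6.91, 6.98 and 7.17 early and at 5.44, 5.70, 6.68 and 6.68 late, a change of -0.55 ± 0.22 (adjusted p = 0.0724). It changed by -0.10 and -0.04 in series C and D, and the difference between series passed (adjusted p = 0.0313). Over all series late minus early was -0.02 ± 0.11.

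For Grin2d and Grin3a the probes disagreed. The brightest Grin2d probe changed by -0.52 to +0.26 within series and passed in none, while the second fell by 0.67 in series A (adjusted p = 0.00575 in limma) and by 0.59 in series B (adjusted p = 0.00849). The second Grin3a probe, well above background on 45 of 55 arrays and correlated with the first at 0.41, fell by 1.07 in series B (adjusted p = 0.00930), against -0.15 for the first. Grin3b changed by -0.20 to +0.56 and passed in no series.

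The third comparison was between the culture series themselves. With group and series in one model, the level differed between series for 6 of 7 subunits, a test that 75.4% of all probes passed. The exception was Grin2d (adjusted p = 0.105 in limma), whose second probe passed (adjusted p = 6.35e-06). Because most probes passed, the sizes and directions below describe the members more than the count does. With slide as a block Grin1 did not pass either (adjusted p = 0.0742 in limma).

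Grin2c separated the series most. It ran from 0.96 to 2.58 (median 1.31) in series A, from 2.23 to 3.57 (median 2.50) in series B, from 2.77 to 4.48 (median 3.13) in series C and from 2.95 to 4.14 (median 3.37) in series D. Every array of series C and D lay above every array of series A, and the median processed signal went from 257 over 521 and 993 to 1481. Series A was lower than B by 1.23 ± 0.10 (adjusted p = 3.55e-11 in limma; 30.4% of probes called), C higher than the mean of A and B by 1.27 ± 0.08 (adjusted p = 1.57e-16; 40.1%), and D higher than the mean of A, B and C by 0.87 ± 0.07 (adjusted p = 3.36e-13; 53%). With slide as a block all 3 passed, at -1.65, +1.70 and +0.93. Of the astrocyte markers, Aqp4, Gfap, Gja1 and Slc1a3 were lower in A than in B, Aqp4 and Aldh1l1 higher and Slc1a3 lower in C, and Aqp4 and Gfap higher and Aldh1l1 and Slc1a3 lower in D, and their part was not tested.

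**Figure D5:**
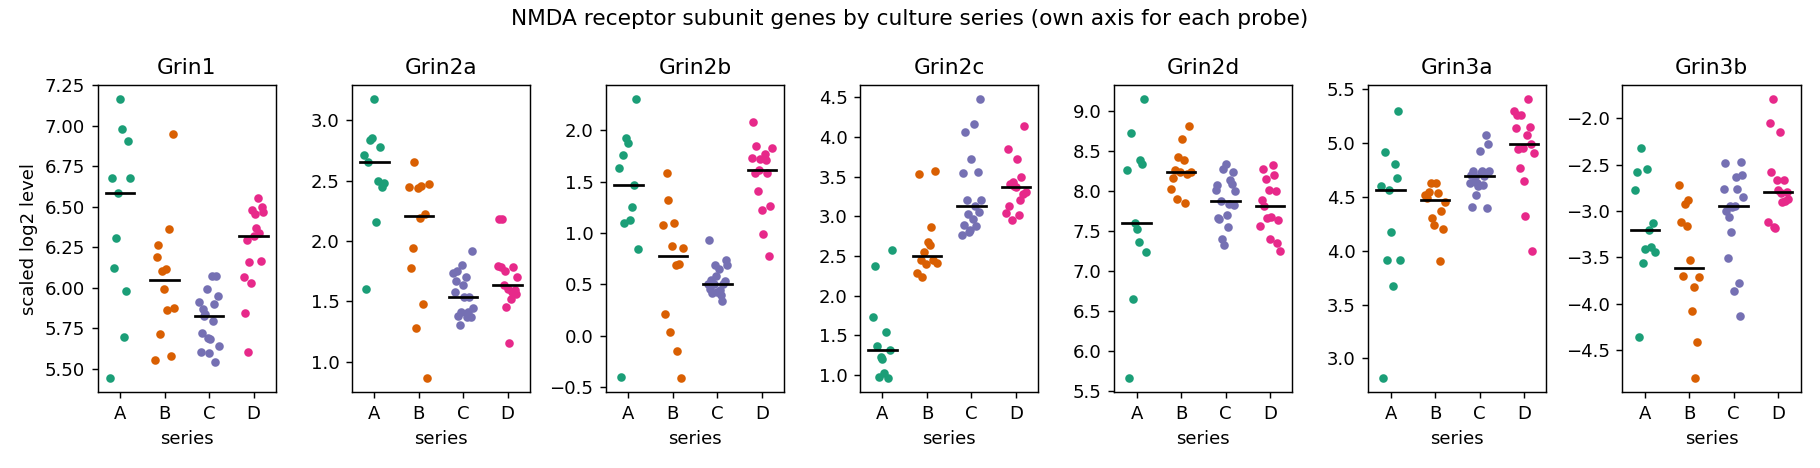
Scaled log2 level (y axis, an axis of its own for each gene) of the 7 subunit genes on every array of culture series A (11 arrays), B (12), C (17) and D (15); points are arrays and black lines medians. The median of Grin2c goes from 1.31 in series A over 2.50 and 3.13 to 3.37 in series D, while that of Grin2d stays between 7.60 and 8.24.

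Grin2a ran in nearly the reverse order. Its median was 2.65 in series A (1.60 to 3.18), 2.21 in series B (0.86 to 2.66), 1.54 in series C (1.31 to 1.92) and 1.64 in series D (1.16 to 2.18). It was higher in A than in B by 0.51 ± 0.16 (adjusted p = 0.0158 in limma), lower in C by 0.74 ± 0.12 (adjusted p = 4.08e-06) and lower in D by 0.36 ± 0.11 (adjusted p = 0.00741). With slide as a block the difference between A and B did not pass (+0.84, adjusted p = 0.268), and C was lower by 1.04. The drop in D was -0.13 by the second probe (adjusted p = 0.247). Scaling each array to its 75th percentile left the difference between A and B without a call for Grin2a (adjusted p = 0.105) and Grin2b (adjusted p = 0.136).

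Grin2b was high in series A and D and low in B and C. Its median was 1.46 in A (-0.41 to 2.30), 0.77 in B (-0.42 to 1.58), 0.51 in C (0.34 to 0.93) and 1.62 in D (0.77 to 2.08). It was higher in D than in the other series by 0.69 ± 0.14 (adjusted p = 8.13e-05 in limma), higher in A than in B by 0.67 ± 0.21 (adjusted p = 0.0116) and lower in C by 0.47 ± 0.15 (adjusted p = 0.0110). With slide as a block the difference between A and B did not pass (+0.51, adjusted p = 0.657), and that of C was -1.23. In series D the GABAergic markers Gad1, Gad2 and Slc32a1 (3 of 3, list median +1.29) and the glutamatergic markers Slc17a6, Slc17a7, Neurod6 and Tbr1 (4 of 4) were higher, and the oligodendrocyte precursor markers Pdgfra, Cspg4 and Olig2 (3 of 3, list median -2.71) were lower. In this comparison of D with the other series 53% of all probes were called. The mean level of the GABAergic markers was 2.86 to 3.57 in series D and 1.62 to 2.76 in the others. That of the 2 fibroblast markers also set D apart, at 5.87 to 6.33 against 1.85 to 4.72. The part of these cell types in the level of Grin2b was not tested.

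The remaining subunits differed less. Grin1 was lower in C than in A and B by 0.40 ± 0.11 (adjusted p = 0.00442 in limma) and higher in A than in B by 0.40 ± 0.16 (adjusted p = 0.0496). With slide as a block neither Grin1 call passed (adjusted p = 0.120 and 0.763). Grin3a was higher in D by 0.45 ± 0.13 (adjusted p = 0.00293; second probe +0.69) and higher in C by 0.33 ± 0.13 (adjusted p = 0.0451), which did not pass with slide as a block (+0.59, adjusted p = 0.172). In C its second probe went the other way, at -0.45 ± 0.16 (adjusted p = 0.0259). The Grin3b probe was higher in D by 0.56 ± 0.15 (adjusted p = 0.00228), near background.

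Genes that act with the receptor were taken as a list of 31, of which 27 could be tested: scaffolds, kinases and phosphatases, downstream enzymes, the supply of co-agonist and transcription factors named for subunit promoters. In the 10 comparisons of stimulation with sham, none of the 27 was called in limma, where 0 to 0.0056% of all probes were called. Keeping the array with the failed grid gave 19 calls. These came with that 1 array and are not a result about the partners. Between late and early times 2 were higher and 6 lower with series in the model, with a list median of -0.06 against -0.04 over all probes, of which 31.2% were called. Of the co-agonist genes, Slc7a10, a carrier of D-serine and glycine, rose by 0.67 ± 0.18 (adjusted p = 0.00434), and Srr, which makes D-serine, fell by 0.15 ± 0.04 (adjusted p = 0.00882). Nos1, the neuronal nitric oxide synthase tied to the receptor through Dlg4, fell by 0.69 ± 0.12 (adjusted p = 1.65e-05), with -0.997, -1.30, -0.49 and -0.31 in series A, B, C and D (adjusted p of the difference between series = 0.0142). Camk2b, a subunit of a calcium-dependent kinase of the synapse, was lower by 0.39 ± 0.08 over all series, a change that differed between series (adjusted p = 0.00629), with -0.64, +0.11, -0.35 and -0.61 in series A, B, C and D. The kinase gene Fyn fell by 0.25 ± 0.09 and the receptor tyrosine kinase gene Ephb2 by 0.47 ± 0.16, and the transcription factor gene Sp1 rose by 0.23 ± 0.09. Without series Slc7a10, Nos1 and Camk2b were called as well, where 16% of probes were called.

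Between the series 22 of the 27 partners differed, against 75.4% of probes. In series D 12 were higher and 7 lower, where 53% of all probes were called. In series C 2 were higher and 8 lower than in A and B, where 40.1% of all probes were called. Dlg4, the scaffold PSD-95, was higher in D by 0.96 ± 0.17 (adjusted p = 9.55e-06 in limma) and Rasgrf2, a calcium-dependent Ras activator, by 0.77 ± 0.21, while Phgdh, which makes serine from a glycolytic intermediate, was lower by 0.74 ± 0.08 (adjusted p = 3.04e-10). The transcription factor genes Nrf1 (-0.70 ± 0.11), Sp1 (-0.67 ± 0.09) and Rest (-0.56 ± 0.07) were lower in D as well.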

How the data were processed

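RNA of cultured neurons was hybridised to 56 1-colour Agilent arrays of 62976 spots, on 7 slides of 8 arrays scanned on 1 day. The intensities deposited by the authors were processed signals of Feature Extraction 12.0.3.1, which subtracts background. The genome build named in the headers of the scanner output is rn4. The authors also deposited a table that gives each probe a z score, made by centring and scaling the log signals of each array, which served as an alternative. Control spots and spots with outlier flags were left out (420 of 45598 probes were lost by this), spots of a probe were averaged, and the log2 intensity was centred and scaled per array. Probes were named through their accession by a RefSeq table (20929 probes had a symbol). The 35694 probes well above background on at least 3 of 55 arrays were tested. Group means were fitted with limma 3.58.1 in R 4.3.3 (39 residual degrees of freedom), and again with culture series added (36). Adjusted p-values are Benjamini-Hochberg over all probes tested, with a threshold of 0.05. The fit with a change for each series had 30 residual degrees of freedom. The methods' criteria were an ANOVA p under 0.05, a z-test p under 0.05 with a false discovery rate under 0.3, an absolute z ratio over 1.5 and a mean z score above 0. The alternative background correction (normexp, offset 50) used median spot signals in place of the mean signals that had been planned.

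The subunits were chosen by name, and the lists of partners and cell markers (31 and 38 genes, of which 27 and 37 were tested) were chosen with earlier results of these data known. All 7 subunits are described, and the values of 1 partner gene are not reported here. The fits were tested on simulated data, and 21 settings and 55 fits without 1 array were tried. No array value was saturated, and the number of arrays limits the precision. Figures were drawn with matplotlib 3.10.9.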

Additional observations from a re-analysis of the deposited data

Results flagged for a closer look

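In 3 of 56 sets of 4 arrays tested, each set being 1 subunit in 1 group, 1 array lay far from the others, and chance alone marks about 1 in 20 such sets. Grin1 was at 6.55 in iTBS_0H replicate 4, where the other arrays of the group lay between 5.87 and 5.98. Grin2b was at 2.30 in iTBS_2H replicate 3 against 0.53 to 0.77. Grin3a was at 3.92 in the untreated replicate 1 against 4.51 to 4.63. The change from early to late times differed between culture series for 4 of the 7 subunits in limma, a test that 40.4% of all probes passed, with an adjusted p of 7.43e-04 for Grin2a, 0.0127 for Grin2b, 0.0259 for Grin2c and 0.0313 for Grin1.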

How the results depend on the processing

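Stimulation against sham gave 0 calls of 70 in every setting but 1: with all 56 arrays it gave 3, and iTBS against 1 Hz gave 4. For time, 0 of 35 became 5 with series in the model, 2 with the replicate block, 5, 5 and 4 with series under 75th percentile, quantile and normexp scaling, and 5 with series and slide. With series it was 3, 3, 5 and 3 without series A, B, C and D, and 3 without 1Hz_48H replicate 1. Leaving out 1 array without series gave 0 to 2. Sham over time gave 1 call with series, with series under each of the 3 scalings, without 1Hz_48H replicate 1 and with series and slide. The culture series count of 6 became 3 with all 56 arrays, 3 with second brightest probes (3 genes have one), 5 with slide as a block, with the replicate block and with normexp, and 6 to 7 without 1 array. Calls of partner genes for stimulation against sham rose from 0 to 19 with all 56 arrays. Reversed values were Grin1 in series C minus A and B (0.023) and A minus B (-0.19) with all 56 arrays, Grin3a in series C minus A and B (-0.061, mean of probes) and Grin2a at 48 h (0.017, slide block). The causes were not tested. The counts in this paragraph stand without the share of all probes in each setting. They describe how the calls depend on the setting and are not results about the members or partners. The scalings combined with series, series without a single series or without 1Hz_48H replicate 1, and series with slide were chosen after seeing the data. Deviations of same-numbered arrays correlated at -0.46 to 0.78 (373 pairs, median 0.18), those of differently numbered arrays at a median of -0.10 (1042 pairs). Those of the same series correlated at a median of 0.42 (360 pairs), so series matched the arrays more closely than replicate number did. With the replicate block, Grin2c was +0.88 at 48 h (adjusted p = 0.0371 in limma). With a term for every series and time, time changes could not be fitted.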

Other observations

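Over the 55 arrays, the genes most like each subunit by Pearson's r, among 13888 genes, are given as descriptions of arrays that share series and times. For Grin2c they were Pir (0.92), Fbxo2 (0.91) and Aox1 (0.91), and for Grin2a Ncam2 (0.89), the presynaptic scaffold gene Pclo (0.85) and Chml (0.84). Grin2b was most like the metabotropic glutamate receptor gene Grm7 (0.89), Usp22 (0.89) and Wscd2 (0.89), and Grin1 like Sez6l2 (0.90), Anapc2 (0.89) and Slc6a17 (0.89). The Grin2d probe was most like Tubb2b (0.90), Actg1 (0.90) and Hspa8 (0.90), genes of the cytoskeleton and a heat shock chaperone, and Grin3a like Ncs1 (0.85). The Grin3b probe had no gene above 0.69 (Rab38).

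Among the subunits, Grin2a and Grin2c ran opposite over all arrays (r = -0.71) and much less so within series (-0.28). Grin2a and Grin2b correlated at 0.51 and at 0.71 within series, Grin2d and Grin3a at 0.51 and 0.72, and Grin2b and Grin3a at 0.52 and 0.69. These values include 1Hz_48H replicate 1, the lowest of the 55 arrays for Grin2d (5.66) and Grin3a (2.82), with Grin2b at -0.41. They also include iTBS_2H replicate 3, the highest for Grin2d (9.15) and Grin2b (2.30), with Grin3a at 5.30. The second probes of Grin2d and Grin3a correlated with the first at only 0.28 and 0.41.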
